A study of Mus musculus with 12 samples.

Results

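The comparison described here is that of colon adenomas from mice of 4 months with colon adenomas from mice of 3 months. It used 4 of the 12 libraries of the series: at each age 1 library from ApcMin/+; Cul4bWT mice (WT) and 1 from ApcMin/+; Cul4bΔIEC mice (KO), all on the C57BL/6 strain. The libraries were chosen by the tissue mark T and the age in their labels, and no measured value entered that choice. All mice carried the ApcMin/+ mutation, the WT mice included; the KO mice in addition lacked Cul4b in the epithelium, through a deletion whose driver line the labels do not name. The titles give only the letters T and N and the design text names the tissues, from which T was taken to mean adenoma and N the normal colon beside it. Total RNA was extracted with Trizol and 3 ug entered each NEBNext Ultra library. The labels do not say whether the libraries came from separate animals, or from 1 or several adenomas. With 1 library for each genotype and age, the tests see no more than the spread between these samples, which may be technical. The 4 adjacent normal libraries of these ages were fitted in the same model, and their spread enters every adenoma p-value. Age and anything else shared by the libraries of an age cannot be told apart.

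ApcMin is a truncating mutation of Apc, a scaffold of the complex that marks β-catenin for destruction. Loss of the remaining allele in an intestinal epithelial cell leaves Wnt target genes switched on, and the cell grows into an adenoma. The adenoma is a mixed tissue of tumour epithelium, stroma, vessels and immune cells, and its bulk RNA sums over all of them. In bulk RNA, fewer cells of a type and less RNA per cell cannot be told apart, which applies to every cell type marker below.

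Cul4b, which encodes the scaffold of a ubiquitin ligase and lies on the X chromosome as gene ENSMUSG00000031095 (38533274 to 38576196 in mm10), was lower in KO than in WT at each age and in each tissue. In adenoma it read 12.2 FPKM in WT and 2.27 in KO at 3 months, and 9.92 in WT and 1.53 in KO at 4 months. FPKM counts fragments per kilobase of gene after scaling to a common library size, here by the authors' size factors. Between the ages Cul4b differed by -0.32 on the log2(FPKM + 1) scale (95% interval -0.92 to 0.27, limma adjusted p = 0.31). In adjacent normal colon of 3 and 4 months it read 13.7 and 14.96 FPKM in WT against 2.99 and 1.38 in KO. The adenoma label was checked with the Wnt target list, whose median stood 1.70 log2 units above adjacent normal colon at 3 months and 1.92 above it at 4 months. Mature colonocyte genes stood 4.14 and 3.91 log2 units below normal colon at the same ages.

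The 4 adenoma libraries held 18263611 to 25321931 reads in genes, and 3 reads corresponded to 0.0524 to 0.0687 FPKM for a gene of 2 kb. The 4-month adenoma libraries stood apart from the 3-month ones in the kinds of RNA they held. Small nucleolar RNA genes took 0.0173% (WT) and 0.0163% (KO) of reads at 3 months and 0.00312% and 0.00367% at 4 months. Reads at miRNA loci fell from 0.0114% and 0.00938% to 0.00273% and 0.00268%, and those of long intergenic RNAs from 0.598% and 0.579% to 0.274% and 0.280%. Mitochondrial mRNA took 4.42% and 5.64% of reads at 3 months and 2.81% and 3.11% at 4 months, but the median difference of the 13 mitochondrial mRNAs turned from -0.43 to 0.29 with the GC trend removed. The 4-month adenoma libraries also read GC-rich genes higher: Spearman's rho across genes, between GC content and a gene's deviation in a library, was 0.34 (WT) and 0.29 (KO) at 4 months against -0.03 and -0.17 at 3 months. The 2 adenoma libraries of 5 months had values of 0.37 and 0.30, and the 6 normal libraries ranged from -0.22 to 0.14. Genes are not independent replicates, and these correlations are descriptions. The part of library composition in the results below was not tested. Values with the GC trend removed, an alternative chosen after seeing the data, are given beside the counts of the groups.

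Between 3 and 4 months 3470 of 15281 genes tested rose in adenoma and 2505 fell, which is 22.7% and 16.4% of the genes tested (limma on log2(FPKM + 1), genotype as a block, Benjamini-Hochberg adjusted p under 0.05). Among them 1194 rose and 869 fell at least 2-fold on that scale. All 5975 called genes moved the same way in WT and in KO. The test sets the mean of the 2 differences against a spread that holds their disagreement. Such agreement is therefore largely built into the call and is no separate result. Both 4-month libraries stood above both 3-month libraries for 43.6% of all genes tested, and below them for 34.8%, so that separate groups were common. A statement below that the ages did not overlap is a description of the values, to be set against these shares. By a rule with no test, at least 1 log2 unit apart the same way in both genotypes and at least 5 FPKM in the highest adenoma library, 876 genes (5.73%) were higher and 397 (2.6%) lower at 4 months. The median difference of all genes was 0.07 log2 units in adenoma, with the middle 90% of genes from -1.11 to 1.22. Across genes, the difference in WT and the difference in KO had a Pearson correlation of 0.81 and a Spearman correlation of 0.84. With the GC trend removed 2585 genes rose and 2146 fell. The excess of higher over lower calls depended on scaling: 2971 genes rose and 2923 fell after rescaling to TPM, and 3003 rose and 3165 fell after rescaling without mitochondrial, immunoglobulin and haemoglobin genes. Leaving out any 1 of the 4 adenoma libraries leaves the difference of 1 genotype alone, with 1 residual degree of freedom, all from normal colon. Such a fit has no replication in adenoma and cannot show which calls depend on 1 library. Among genes named by the rule given with the processing, the calls of Areg, Cdkn2a, H2-K1, Ifng, Isg15, Krt19, Krt7, Krt8, Ldha, Lox, Rpl23, S100a6, Tgfbr2 and Zg16 were lost with no filter on low values. Those of H2-K1, Ldha and Tgfbr2 were lost with the GC trend removed, and those of Isg15, Krt20 and Ldha in a fit of all 12 libraries. These are only some of the calls lost. Of 293 genes named by the rule, 57 lost their call with no filter and 18 in the fit of all 12 libraries. With the GC trend removed 35 of 291 lost it.

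**Figure D1:**
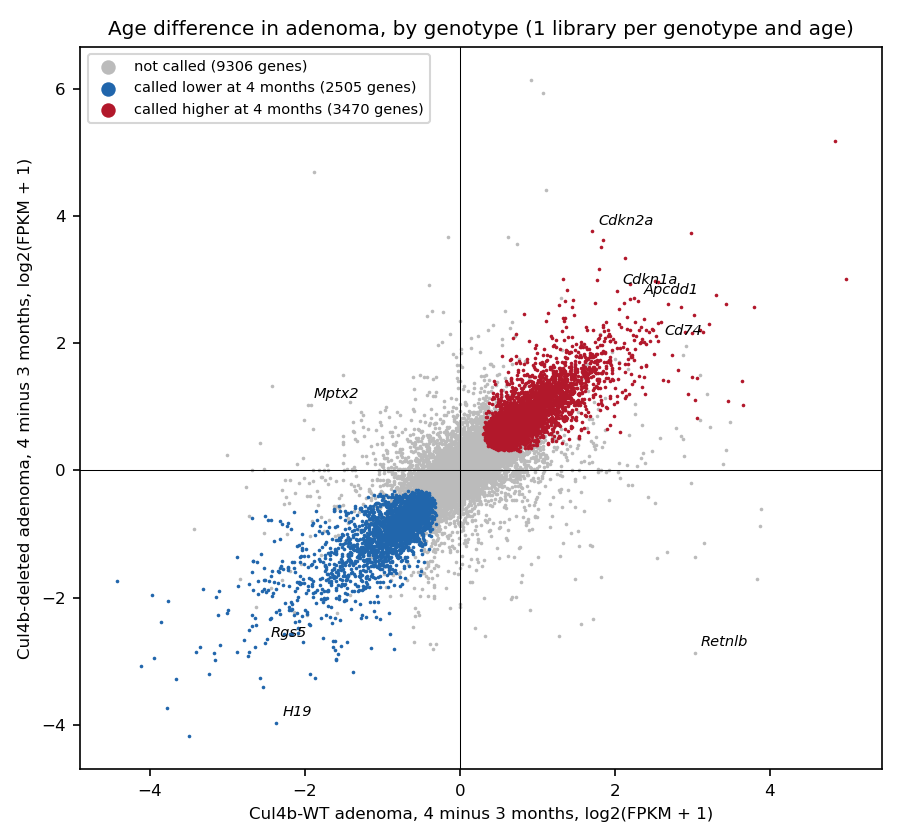
Difference between 4 and 3 months in WT adenoma (x axis) and in KO adenoma (y axis), log2(FPKM + 1), 1 point per gene tested, with called genes coloured. The called genes lie in the quadrants where both genotypes moved the same way, which the call largely requires. The correlation across all genes tested was 0.81 (Pearson).

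In adjacent normal colon the same contrast gave 5 genes higher and 6 lower, 0.072% of those tested by limma, with 1965 genes at an unadjusted p under 0.05. A limma-voom fit on the reads recovered from the FPKM called 165 genes there. The middle 90% of genes ranged from -0.60 to 0.58 in normal colon. The age difference itself was larger in adenoma than in normal colon for 1611 genes (10.5%) and smaller for 952 (6.23%), tested as an interaction in the same model. Of the 5975 genes called in adenoma, 2348 (39.3%) passed that interaction test. With the GC trend removed, 1642 genes in all passed the interaction test instead of 2563.

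**Figure D2:**
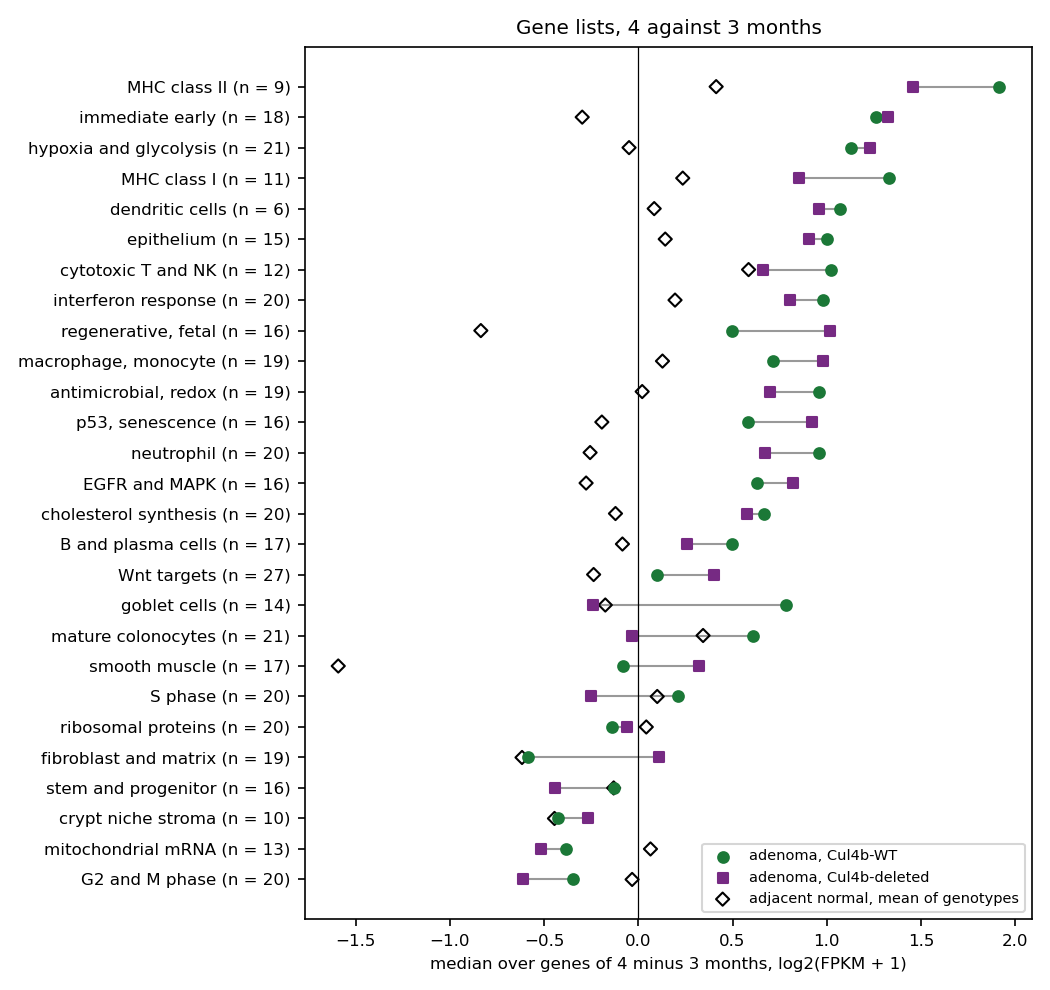
Median difference between 4 and 3 months of each gene list, log2(FPKM + 1), for WT adenoma, KO adenoma and adjacent normal colon. The lists of MHC class II, immediate early and hypoxia or glycolysis genes lie far right in both genotypes (1.68, 1.33 and 1.29 over both), and the G2/M list to the left of 0 (-0.48).

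Several keratins and junction genes of the epithelium were higher at 4 months. Of 15 epithelial markers 10 rose and 0 fell (median 0.94 log2 units, against 0.07 for all genes; 8 rose with the GC trend removed). Krt19, a keratin of simple epithelia, read 337 FPKM in WT and 316 in KO at 3 months, and 957 and 1096 at 4 months. Both 4-month libraries were near the level of normal colon, where Krt19 ranged from 762.2 to 1322 FPKM over the 4 libraries of these ages, and the difference in adenoma was 1.65 log2 units (SE 0.25, limma adjusted p = 0.013). Krt8, another keratin of simple epithelia, went from 802 and 809 FPKM to 1855 and 2002. Cldn4, a claudin of tight junctions, went from 124 and 119 to 449 and 568 FPKM, a difference of 2.05 (SE 0.35, limma adjusted p = 0.015). Cldn3, another claudin, rose by 1.99 log2 units and Cdh1, which encodes E-cadherin, by 1.45. The epithelial surface marker Epcam read 661, 632, 653 and 617 FPKM in WT and KO at 3 months and WT and KO at 4 months, so that the ages overlapped and differed by -0.03. The epithelial transcription factor Cdx2 differed by -0.08. Krt18, the usual partner of Krt8, read 381 and 383 against 554 and 673 FPKM and did not pass either (difference 0.67, limma adjusted p = 0.13). Summed over the list, epithelial markers gave 2826 and 2804 FPKM at 3 months and 5640 and 6106 at 4 months.

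Genes of injured or fetal-like epithelium, a state seen in regenerating gut, had a median of 0.86, with 7 of 16 higher and 0 lower (8 higher with the GC trend removed). S100a6, a calcium-binding protein, read 408 and 397 FPKM at 3 months and 797 and 1006 at 4 months in WT and KO. Both 4-month libraries lay far above both 3-month ones (difference 1.15, SE 0.20, limma adjusted p = 0.016). Krt7, a keratin, rose by 1.25. Ly6a, which encodes Sca-1 and is also of this list, differed by -0.06. The mature colonocyte list had a median of 0.11 (0.61 in WT, -0.04 in KO), with 4 of 21 higher (2 with the GC trend removed). Krt20, a keratin of differentiated colonocytes, read 31.7 and 26.01 FPKM at 3 months and 135 and 81.0 at 4 months. Goblet cell genes had a median of 0.19 with 4 of 14 higher (3 higher and 1 lower with the GC trend removed), among them Zg16, a mucus lectin, at 105 and 66.8 FPKM at 3 months and 467 and 152 at 4 months. The genotypes went apart in this list, with a median of 0.79 in WT and -0.24 in KO. Its summed level went from 1678 to 2312 FPKM in WT and from 2787 to 1386 in KO, a difference between genotypes that was not tested.

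Genes of epithelial defence and redox control had a median of 0.86, and 9 of 19 rose (8 with the GC trend removed). Nos2, the inducible nitric oxide synthase, read 11.96 and 16.1 FPKM at 3 months and 74.0 and 72.5 at 4 months in WT and KO. The 2 genotypes were close at each age and the ages were far apart (difference 2.32, SE 0.16, limma adjusted p = 0.0084). Duoxa2, the maturation factor of the hydrogen peroxide-producing oxidase Duox2, went from 19.1 and 23.03 FPKM to 105 and 110, and Duox2 itself rose by 1.23. Hmox1, which encodes the haem-degrading enzyme heme oxygenase 1, went from 13.4 and 13.5 to 66.9 and 62.5 FPKM (difference 2.18, SE 0.11, limma adjusted p = 0.0084). In adjacent normal colon Hmox1 read 2.39 and 2.39 FPKM at 3 months and 2.07 and 1.96 at 4 months. Txnrd1, which encodes thioredoxin reductase, rose by 1.63. The antimicrobial lectin Reg3g ran the other way, at 99.7 and 100.15 FPKM at 3 months and 17.5 and 27.0 at 4 months, with a limma adjusted p of 0.080 for a difference of -2.15. That p-value also carries the spread of Reg3g between the normal libraries. In normal colon Reg3g was higher at 4 months by 3.60, and the difference between the tissues was -5.74 (limma adjusted p = 0.037).

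MHC class II genes had the highest median of the 57 lists. Of 9 MHC class II genes, which encode the molecules that show peptides to CD4+ T cells, 6 rose and 0 fell, with a median of 1.68 in adenoma (1.91 in WT, 1.46 in KO) and 0.41 in normal colon. With the GC trend removed the median was 1.40 and the same count of 6 rose. Cd74, the invariant chain, read 191 and 222 FPKM at 3 months and 1130 and 909 at 4 months. Each 4-month library stood far above either 3-month library (difference 2.29, SE 0.31, limma adjusted p = 0.011). In normal colon Cd74 read 278 and 488 FPKM at 3 months and 547 and 470 at 4 months, and the age difference was 1.83 larger in adenoma (interaction, limma adjusted p = 0.054). Ciita, the master transcription factor of class II genes, went from 2.44 and 3.59 to 11.6 and 10.4 FPKM. H2-Ab1, a β chain, went from 118 and 139 to 557 and 490 FPKM, and H2-Eb1 from 140 and 176 to 530 and 486. The α chain H2-Aa read 144 and 254 FPKM at 3 months and 314 and 302 at 4 months, and did not pass (difference 0.68, limma adjusted p = 0.096). H2 genes resemble each other in sequence, and reads may be divided between them.

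Class II promoters carry a conserved set of boxes, one of them a CCAAT box. The letters CCAAT were searched on both strands in RefSeq promoter windows of GRCm38.p6, from 250 bases before to 50 after each start. They were found in 37.4% of all 32851 windows and in at least 1 window of 41.1% of all 27025 genes. All 6 class II genes that had a window held them in at least 1, and 3 of these were called. H2-Aa, H2-Oa and H2-Ob held the letters as well and were not called. The windows of the called members H2-Eb1 (chr17:34305617-34305916, plus strand) and H2-DMb1 (chr17:34152941-34153240, plus strand) are shown because both genes rose together with Ciita. Capitals mark the letters searched, or their reverse complement. A match is a description and not a binding site.
H2-Eb1: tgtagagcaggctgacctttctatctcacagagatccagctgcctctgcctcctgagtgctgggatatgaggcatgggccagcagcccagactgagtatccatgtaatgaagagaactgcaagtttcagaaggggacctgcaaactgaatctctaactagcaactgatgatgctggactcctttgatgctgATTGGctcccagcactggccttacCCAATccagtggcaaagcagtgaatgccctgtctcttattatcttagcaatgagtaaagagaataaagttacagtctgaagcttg
H2-DMb1: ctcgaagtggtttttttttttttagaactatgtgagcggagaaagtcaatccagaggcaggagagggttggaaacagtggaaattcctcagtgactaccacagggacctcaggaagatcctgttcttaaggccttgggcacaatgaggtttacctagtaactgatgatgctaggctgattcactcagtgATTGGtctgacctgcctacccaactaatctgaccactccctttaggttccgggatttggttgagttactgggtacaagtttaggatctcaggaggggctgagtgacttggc
In H2-Eb1 the 2 matches begin 59 and 35 bases before the start, and in H2-DMb1 the match begins 61 bases before it. H2-DMb1, part of the peptide-loading H2-M molecule, went from 20.6 and 25.5 FPKM to 96.3 and 88.1 (difference 1.96, SE 0.19, limma adjusted p = 0.0085).

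Class I presentation and interferon genes were higher too. Of 11 class I genes 8 rose and 0 fell (median 1.06; 7 with the GC trend removed). Tapbp, the chaperone tapasin, read 31.6 and 35.8 FPKM at 3 months and 117 and 108 at 4 months. Tap1, the peptide transporter, went from 17.9 and 20.9 to 58.4 and 57.9 FPKM, and the class I heavy chain H2-K1 from 663 and 779 to 1311 and 1280. The light chain B2m read 3015 and 5808 FPKM at 3 months and 3544 and 3735 at 4 months, so that the ages overlapped, and the class I regulator Nlrc5 differed by -0.38 without passing. Of 20 interferon response genes 12 rose and 0 fell, with a median of 0.88 (0.85 with the GC trend removed). Cxcl10, a chemokine for T cells, went from 20.7 and 25.5 FPKM to 69.7 and 93.4 (difference 1.77, SE 0.13, limma adjusted p = 0.0084). Irf1, a transcription factor induced by interferon-γ, went from 26.8 and 32.6 to 85.1 and 80.9 FPKM. The ubiquitin-like Isg15 went from 66.1 and 130 to 302 and 415. Mx1 (-0.33) and Oas2 (-0.80) of the same list did not pass. Ifng itself read 1.11 and 2.47 FPKM at 3 months and 3.37 and 4.32 at 4 months (difference 0.83, limma adjusted p = 0.020). Cd274, which encodes the checkpoint ligand PD-L1, went from 7.02 and 7.64 to 23.3 and 23.3 FPKM, a rise of 1.54.

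Markers of macrophages, dendritic cells and cytotoxic T cells were higher at 4 months, and 0 members of these 3 lists fell. Of 19 macrophage and monocyte genes 11 rose (median 0.86, and 6 with the GC trend removed, median 0.63). The summed level of all 20 listed went from 904 and 1093 FPKM to 1598 and 2009. The lysosomal marker Cd68 read 7.92 and 8.34 FPKM at 3 months and 21.1 and 22.1 at 4 months, and Apoe, a lipid carrier made by macrophages, 124 and 120 against 384 and 416. The surface marker Adgre1, which encodes F4/80, differed by 0.50 without passing (limma adjusted p = 0.25). Of 6 dendritic cell genes tested 4 rose (2 with the GC trend removed), led by the transcription factor Irf8 at 3.72 and 4.40 FPKM against 11.9 and 12.04. Batf3 did not pass (0.23, limma adjusted p = 0.63). Flt3, Zbtb46, Xcr1, Clec9a, Cd209a and Siglech of that list were too low to be tested. Of 12 cytotoxic T and NK cell genes tested 7 rose (5 with the GC trend removed). Here Cd3e, Prf1, Ncr1, Klrb1c, Eomes and Tbx21 were too low to be tested. All 18 listed summed to 20.6 and 51.5 FPKM at 3 months and 70.0 and 88.2 at 4 months. Cd3d, a chain of the T cell receptor complex, went from 1.07 and 1.36 FPKM to 4.79 and 5.95 (difference 1.52, SE 0.18, limma adjusted p = 0.0093). Cd8a, the co-receptor of cytotoxic T cells, went from 0.513 and 1.06 to 2.51 and 2.47 FPKM.

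Of 20 neutrophil and myeloid-derived suppressor cell genes, the cell class named in the study's title, 12 rose and 0 fell (median 0.78; -0.26 in normal colon; 11 rose with the GC trend removed). The summed level of all 22 listed genes was 1321 and 1312 FPKM in adenoma at 3 months and 1742 and 1590 at 4 months. Ltf, the granule protein lactoferrin, read 1.77 and 0.809 FPKM at 3 months and 8.63 and 15.2 at 4 months (difference 2.48). S100a9, the most abundant calprotectin subunit of neutrophils, read 568 and 534 against 649 and 632 FPKM, and did not pass (difference 0.22, limma adjusted p = 0.48). S100a8 (-0.15, limma adjusted p = 0.55), Ly6g (0.67, limma adjusted p = 0.36) and Cd177 (0.60, limma adjusted p = 0.22) did not pass either. Ngp and Camp of the same list were too low to be tested, at 0.31 and 0.37 FPKM at most in adenoma. Of 19 myeloid chemokine and growth factor genes 6 rose and 1 fell, with the same counts once the GC trend was removed. Cxcl2, a neutrophil attractant, went from 36.0 and 16.6 FPKM to 92.7 and 91.2, and Il6 was the one that fell, from 3.78 and 3.68 to 1.06 and 0.950 (difference -1.24, limma adjusted p = 0.0096). IL-17 and IL-22 axis genes had a median of 0.56 with 6 of 17 higher (7 with the GC trend removed), Nos2 and Duoxa2 among them.

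Immediate early genes had the largest share of higher members among the 57 lists. These genes are transcribed within minutes of growth factor, or stress signals, and 17 of 18 rose with 0 lower (median 1.33 in adenoma, -0.30 in normal colon; 13 of 18 with the GC trend removed, median 1.06). Junb, a subunit of the AP-1 transcription factor, read 46.1 and 37.4 FPKM at 3 months and 142 and 114 at 4 months. The ages did not overlap, the spread between genotypes was small beside the gap between ages, and the difference was 1.59 (SE 0.12, limma adjusted p = 0.0084). The AP-1 subunit Fos went from 18.7 and 17.2 to 48.8 and 54.1 FPKM, and Atf3, a stress-induced factor, from 14.7 and 16.3 to 63.0 and 64.5. Dusp1, a phosphatase of MAP kinases, went from 19.1 and 9.33 to 55.4 and 37.3 FPKM. Egr3 was the member that did not pass (0.50, limma adjusted p = 0.18). The age difference of Junb was 2.17 larger in adenoma than in normal colon (interaction, limma adjusted p = 0.025).

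EGFR and MAP kinase pathway genes had a median of 0.68, with 10 of 16 higher and 1 lower (8 and 1 with the GC trend removed). Among ligands, Areg, which encodes amphiregulin, read 11.2 and 12.8 FPKM at 3 months and 39.0 and 62.5 at 4 months (difference 1.96, SE 0.37, limma adjusted p = 0.019). Hbegf rose by 1.19, while the ligand Ereg differed by -0.32 (limma adjusted p = 0.52). Among receptors, Egfr rose by 0.72, Erbb3 by 0.89 and Erbb2 by 0.65. Among feedback phosphatases of ERK, Dusp4 went from 10.4 and 8.87 FPKM to 47.5 and 46.3 (difference 2.17, SE 0.11, limma adjusted p = 0.0084), and Dusp6 from 14.3 and 13.0 to 39.0 and 39.1. Etv4, a transcription factor downstream of ERK, was the member that fell, by 0.66.

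Most genes of the glucose uptake and glycolysis list rose, and Pgk1 did not pass. Of 21 genes of the hypoxia and glycolysis list 14 rose and 2 fell (median 1.29 in adenoma, -0.05 in normal colon; 13 rose and 2 fell with the GC trend removed). Slc2a1, the glucose transporter GLUT1, read 15.7 and 17.1 FPKM at 3 months and 56.6 and 46.0 at 4 months. The genotypes were close at each age and the ages did not overlap (difference 1.58, SE 0.15, limma adjusted p = 0.0084). Hk2, which phosphorylates glucose, went from 17.7 and 17.5 FPKM to 63.6 and 49.0, and Hk1 from 1.996 and 2.097 to 10.5 and 9.20. Pgam1, phosphoglycerate mutase, went from 30.0 and 29.3 to 112 and 109 FPKM, and Eno1, enolase, from 47.2 and 50.6 to 155 and 149. Slc16a3, a lactate exporter, went from 14.9 and 17.5 to 46.4 and 42.4 FPKM. Ldha, lactate dehydrogenase, moved less, from 225 and 221 to 351 and 370 (difference 0.69, limma adjusted p = 0.047). Pgk1, phosphoglycerate kinase, read 281 and 316 FPKM against 274 and 295, with overlapping ages. The 2 members that fell are both well-known targets of the hypoxia-inducible factor HIF: the vessel growth factor Vegfa went from 23.6 and 20.7 to 14.3 and 11.3 FPKM (difference -0.75, limma adjusted p = 0.019), and the carbonic anhydrase Car9 from 7.64 and 7.15 to 4.65 and 4.204 (difference -0.63, limma adjusted p = 0.025). Other HIF targets rose, among them Egln3, a prolyl hydroxylase that marks HIF for destruction, from 26.5 and 23.3 to 80.8 and 91.8 FPKM. Glycolytic genes have pseudogenes and near copies, and reads may be divided between them.

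HIF binds a short core whose common form is ACGTG, letters that were searched on both strands in the same RefSeq windows. They were found in 19.6% of all windows and in at least 1 window of 21.8% of all genes, and 15 of the 20 list members that had a window held them in at least 1. Of the 16 called members with a window, 12 held the letters. The windows of 3 members that rose and of Car9, which fell, are shown so that the letters can be seen on both sides of the result. Capitals mark the letters searched, or their reverse complement, and a match is a description and not a site. The windows are Hk2 at chr6:82774405-82774704 on the minus strand, Slc2a1 at chr4:119108495-119108794, Slc16a3 at chr11:120948817-120949116 and Car9 at chr4:43506776-43507075, the last 3 on the plus strand.
Hk2: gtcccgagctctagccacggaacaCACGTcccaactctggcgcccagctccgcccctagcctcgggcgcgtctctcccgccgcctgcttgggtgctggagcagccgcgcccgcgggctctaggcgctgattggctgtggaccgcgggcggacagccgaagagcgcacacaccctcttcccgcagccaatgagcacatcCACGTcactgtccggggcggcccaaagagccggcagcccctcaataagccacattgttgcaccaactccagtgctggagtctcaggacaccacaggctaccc
Slc2a1: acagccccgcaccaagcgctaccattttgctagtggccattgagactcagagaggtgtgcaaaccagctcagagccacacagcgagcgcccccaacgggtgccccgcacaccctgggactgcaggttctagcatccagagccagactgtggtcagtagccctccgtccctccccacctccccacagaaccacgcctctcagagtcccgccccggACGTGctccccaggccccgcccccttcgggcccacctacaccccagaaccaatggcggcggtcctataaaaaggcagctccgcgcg
Slc16a3: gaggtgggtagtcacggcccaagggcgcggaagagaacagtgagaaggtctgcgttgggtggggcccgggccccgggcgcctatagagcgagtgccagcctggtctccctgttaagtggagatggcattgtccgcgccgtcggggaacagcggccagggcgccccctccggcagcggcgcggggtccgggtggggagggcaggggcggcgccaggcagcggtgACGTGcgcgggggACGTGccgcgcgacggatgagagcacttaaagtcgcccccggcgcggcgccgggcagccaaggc
Car9: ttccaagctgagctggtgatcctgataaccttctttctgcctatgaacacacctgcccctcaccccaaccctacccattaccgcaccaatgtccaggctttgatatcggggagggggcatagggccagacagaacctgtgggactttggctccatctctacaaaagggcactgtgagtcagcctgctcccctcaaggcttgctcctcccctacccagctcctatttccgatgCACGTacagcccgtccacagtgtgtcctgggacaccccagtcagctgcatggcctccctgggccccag
The match begins 36 bases before the start in Slc2a1 and 18 bases before it in Car9. Both a gene that rose and a gene that fell thus held the letters close to the start.

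Cholesterol synthesis genes were higher at 4 months, 12 of 20 with 0 lower (median 0.60; 10 higher and 1 lower with the GC trend removed). Mvk, mevalonate kinase, read 4.84 and 4.26 FPKM at 3 months and 14.0 and 13.7 at 4 months, and Srebf2, the transcription factor of the pathway, 22.1 and 19.1 against 55.5 and 51.1. The late enzyme Msmo1 differed by -0.56 without passing (limma adjusted p = 0.12). Of 16 genes of fatty acid oxidation and ketogenesis 5 rose and 1 fell (2 and 1 with the GC trend removed). Acadl, a long-chain acyl-CoA dehydrogenase, went from 48.8 and 60.3 to 125 and 143 FPKM.

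Cell cycle genes split by phase and by role. Of 20 G2/M genes 9 fell and 2 rose (median -0.48 in adenoma, -0.03 in normal colon; 9 fell and 2 rose with the GC trend removed as well). Mki67, the proliferation antigen Ki-67, read 30.2 and 32.1 FPKM at 3 months and 16.7 and 14.4 at 4 months. The 4-month libraries were both low and the 3-month libraries both high (difference -0.96, SE 0.14, limma adjusted p = 0.012). Cdk1, the mitotic kinase, went from 30.6 and 32.8 FPKM to 14.975 and 12.5, and Nusap1, a spindle protein, from 23.8 and 26.1 to 9.15 and 7.84. The 2 that rose were the mitotic kinase Aurka, from 8.65 and 6.65 to 16.1 and 12.2 FPKM, and Cdc20, an activator of the anaphase-promoting complex, from 15.3 and 14.4 to 38.1 and 24.7. Of 20 S-phase genes 2 rose and 2 fell, with a median of -0.05 (0 rose and 2 fell with the GC trend removed).

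Several inhibitors of the cell cycle were higher. Of 16 genes of p53 and senescence 10 rose and 0 fell (median 0.82; 9 with the GC trend removed). Cdkn1a, which encodes p21, read 28.3 and 18.5 FPKM at 3 months and 118 and 137 at 4 months. Both genotypes were high at 4 months and low at 3 months, with a difference of 2.42 (SE 0.22, limma adjusted p = 0.0084). The age difference was 2.62 larger than in normal colon (interaction, limma adjusted p = 0.026). Cdkn2a, which encodes p16 and p19ARF, went from 7.11 and 2.42 FPKM to 25.6 and 45.3 (difference 2.74, SE 0.59, limma adjusted p = 0.026). The call was lost with a pseudocount of 0.1 (limma adjusted p = 0.11) and with no filter on low values (limma adjusted p = 0.074). Its neighbour Cdkn2b, which encodes p15, went from 8.28 and 4.93 to 20.03 and 24.7 FPKM. Mdm2, the ubiquitin ligase of p53, rose by 0.46. Other members did not pass, among them Ccng1 (0.02, limma adjusted p = 0.93) and Bax (0.25, limma adjusted p = 0.42). Trp53inp1 did not pass either (-0.51, limma adjusted p = 0.16). The p53 list held 10 higher members where the share over all genes was 22.7%.

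Wnt targets moved in parts. Of 27 Wnt target genes 8 rose and 2 fell (median 0.24, and 0.01 with the GC trend removed, against 0.07 and 0.04 for all genes). Axin2, a feedback inhibitor and general readout of the pathway, read 32.7 and 24.9 FPKM at 3 months and 48.9 and 45.9 at 4 months (difference 0.71, SE 0.13, limma adjusted p = 0.018). Sox4, a transcription factor, went from 11.1 and 9.06 FPKM to 39.5 and 39.9, and the cyclin Ccnd1 from 11.3 and 9.02 to 35.2 and 37.5. Apcdd1, a membrane inhibitor of Wnt, went from 8.02 and 6.00 to 43.3 and 43.4 FPKM (difference 2.48, SE 0.21, limma adjusted p = 0.0084). The stem cell receptor Lgr5 moved the other way, from 5.97 and 10.1 to 2.70 and 2.77 FPKM (difference -1.24, SE 0.19, limma adjusted p = 0.013), as did Smoc2 (-0.58). Of 16 stem and progenitor genes 1 rose and 5 fell (0 and 5 with the GC trend removed). Ascl2, the transcription factor of intestinal stem cells, read 14.8, 14.3, 14.1 and 13.9 FPKM in the 4 libraries, with a difference of -0.05 (limma adjusted p = 0.88). Myc differed by 0.48 (limma adjusted p = 0.083) and the secreted inhibitor Notum by 0.04. Of these markers of crypt base stem cells, Lgr5 thus fell while Ascl2 stood at nearly one level in the 4 libraries.

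Some stromal genes of matrix and crypt niche fell, in shares that were lower with the GC trend removed. Of 19 fibroblast and matrix genes 5 fell and 1 rose (median -0.20 in adenoma, -0.62 in normal colon). With the GC trend removed 3 fell and 0 rose. Postn, the matrix protein periostin, read 12.3 and 14.1 FPKM at 3 months and 1.63 and 2.31 at 4 months. Both genotypes were low at 4 months, far below either 3-month library (difference -2.26, SE 0.22, limma adjusted p = 0.0084). Dcn, the proteoglycan decorin, went from 51.3 and 68.0 to 15.3 and 23.97 FPKM, and Lum, Lox and Col5a2 also fell. Vim, an intermediate filament of mesenchymal cells, was the one that rose, by 0.79, and Col1a1 differed by -0.20 (limma adjusted p = 0.60). Rgs5, a marker of pericytes, went from 15.1 and 24.3 FPKM to 1.82 and 2.86 (difference -2.62, SE 0.32, limma adjusted p = 0.0097). Summed over 8 pericyte genes, 5 of them tested, the levels were 25.5 and 31.9 FPKM at 3 months and 7.02 and 10.5 at 4 months. Of these genes 1 was called, Rgs5, which made up most of the 3-month sum. Of 10 genes of the stromal crypt niche 4 fell and 1 rose (2 and 1 with the GC trend removed). Grem1, a BMP antagonist, went from 21.01 and 42.8 to 6.30 and 9.87 FPKM in adenoma, and in normal colon it differed by -2.14. Of 17 smooth muscle genes 0 passed in adenoma, by a test whose spread includes that of normal colon. In normal colon their median was -1.59. There the 20 listed genes summed to 182 (WT) and 910 (KO) FPKM at 3 months and 62.0 and 79.8 at 4 months.

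Among matrix proteases and related genes 3 rose and 2 fell of 17 (4 and 2 with the GC trend removed). Mmp10, which encodes stromelysin 2, read 250 and 321 FPKM at 3 months and 53.3 and 108 at 4 months (difference -1.89), and Mmp13 differed by -0.93. Mmp7, the abundant protease of intestinal adenomas, read 737 and 984 against 444 and 537 FPKM and did not pass (difference -0.80, limma adjusted p = 0.12).

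**Figure D3:**
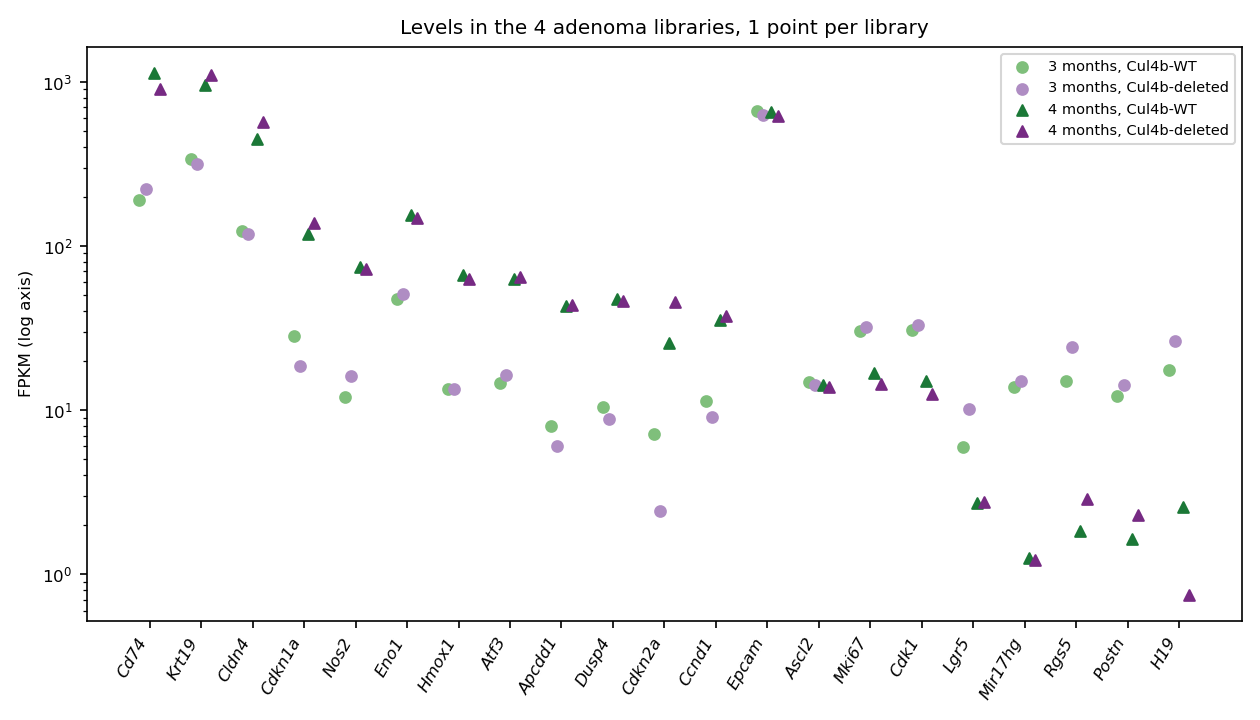
FPKM of selected genes in the 4 adenoma libraries (log axis), 1 point per library, with circles for 3 months, triangles for 4 months and colour for genotype and age. The points of the 2 ages are apart for the genes that passed the test, such as Cd74 (191 and 222 against 1130 and 909) and Postn (12.3 and 14.1 against 1.63 and 2.31).

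The genes with the largest rises were from several of these groups. Among the 10 largest, predicted genes and immunoglobulin segments set aside, were Cdkn2a, Apcdd1, Ltf and Cdkn1a, given above. Ass1, argininosuccinate synthase of arginine synthesis, read 4.46 and 5.69 FPKM at 3 months and 32.2 and 32.8 at 4 months (difference 2.47). Wars, a tryptophanyl-tRNA synthetase induced by interferon-γ, went from 15.8 and 18.4 to 98.3 and 95.1 FPKM (2.44). Acod1, which makes itaconate in activated macrophages, went from 10.97 and 8.15 to 61.0 and 46.7 FPKM (2.38). Sprr2a2, a small proline-rich protein of stressed epithelium, went from 9.19 and 8.59 to 57.6 and 74.1, though it has near-identical neighbours among which reads may be divided. Kap, an androgen-regulated kidney protein, had the largest of these rises (2.76), from 0.199 and 0 FPKM to 6.05 and 6.78, but it rested on 4 and 0 reads at 3 months and 95 and 137 at 4 months.

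The largest falls were of small and noncoding RNAs. Of 134 small nucleolar RNA genes tested 84 fell, with a median of -1.46 in adenoma; most hold few reads, with a median of 4.06. Among the 13 with a mean of at least 20 reads all 13 fell, with a median of -2.22. Of 148 miRNA loci 55 fell (median -1.11, median 2.25 reads), and of the 7 with at least 20 reads 4 fell and 1 rose. That mean included the 3-month adenoma libraries. Small nucleolar RNA genes took 0.0173% (WT) and 0.0163% (KO) of reads there, the largest shares of any library. A locus could thus reach 20 reads, or the mean of 0.5 FPKM required for testing, through the 3-month adenomas, which favours loci that fell. The counts and medians of these loci, also those set beside hosts below, are therefore descriptions and no separate evidence of a fall. The shares of reads covered all such loci, tested or not. Of 339 long intergenic RNAs 124 fell, and of 12624 protein-coding genes 3148 rose and 1734 fell. For 101 small nucleolar RNA genes inside introns of 78 tested hosts, the median was -1.56 while that of the hosts was -0.06, and 50 of them fell with a host that was not lower. With the GC trend removed the small nucleolar RNA median was -1.29 and 69 fell. The library preparation named in the labels is not one for small RNAs, and the share of such short fragments it keeps was not measured.

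**Figure D4:**
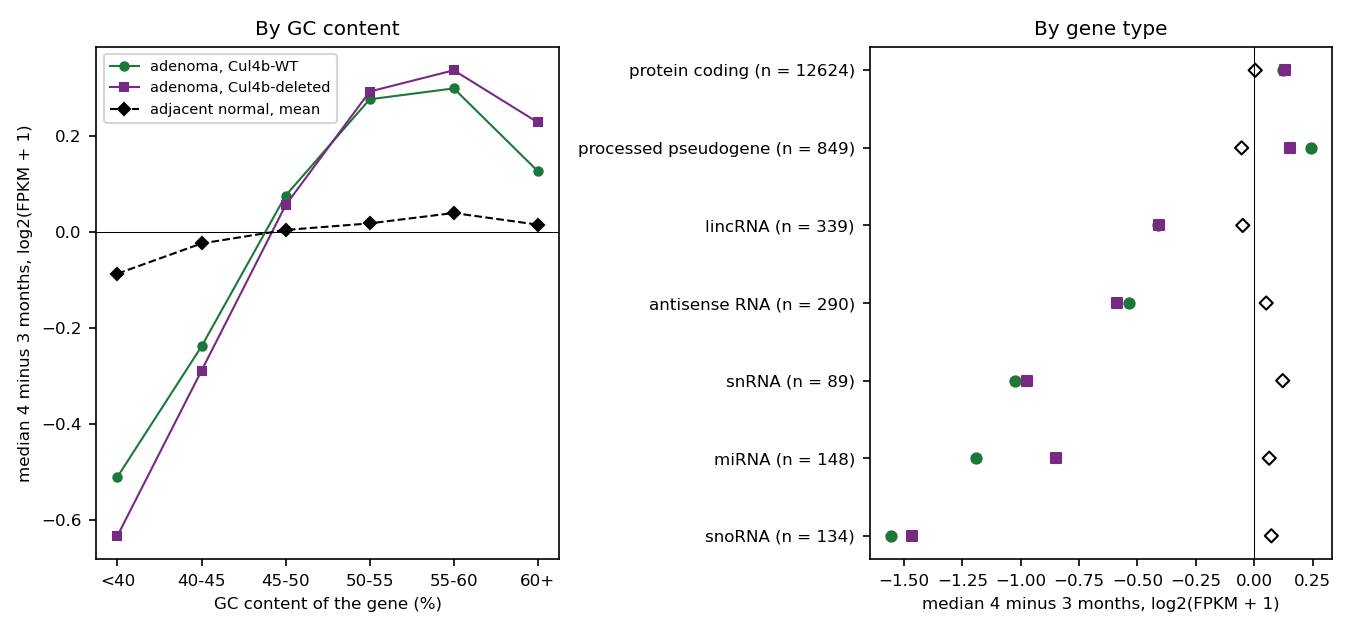
Left, median difference between 4 and 3 months in log2(FPKM + 1) by GC content of the gene, in WT and KO adenoma and adjacent normal colon; right, the same by gene type, with the number of genes tested. In adenoma the median over both genotypes ran from -0.59 under 40% GC to 0.32 at 55 to 60%, and small nucleolar RNAs lie at -1.46.

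Genes under 40% GC had a median of -0.59, with 323 of 668 lower and 10 higher, while of 2809 genes of 55 to 60% GC 990 rose. A few RNAs were picked after their values had been seen, from no fixed list, and stand here for themselves only. Neat1, the scaffold RNA of paraspeckles, read 35.4 and 35.7 FPKM at 3 months and 7.24 and 6.55 at 4 months (difference -2.21, limma adjusted p = 0.0084), against 32.0 and 29.6 in the separately scaled 5-month table. Malat1, an RNA of nuclear speckles, went from 147 and 115 FPKM to 24.8 and 34.3 (difference -2.12, limma adjusted p = 0.0087), and read 147 and 169 at 5 months. The splicing-related genes Clk1, from 22.2 and 27.7 to 6.88 and 6.32 FPKM, and Ccnl2, from 46.4 and 40.7 to 13.3 and 13.6, also fell. Leng8, named for its interaction, went from 44.5 and 38.5 FPKM to 6.34 and 6.33. H19, an imprinted long noncoding RNA, went from 17.5 and 26.3 to 2.58 and 0.752 FPKM, which is 1177 and 1365 reads against 136 and 51. For each of these RNAs both 4-month libraries were below both 3-month libraries, as for 34.8% of all genes tested.

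A miRNA locus and a miRNA host gene known from intestinal tumours were among the genes that fell. Mir31 (chr4:88910557-88910662, minus strand, mm10) read 126 and 142 FPKM at 3 months and 13.2 and 18.5 at 4 months, from 380 and 328 reads against 31 and 56. Both 4-month libraries were low in either genotype (difference -3.02), and in normal colon the difference was -1.82 (limma adjusted p = 0.071), so that the tissues differed by -1.20 (interaction, limma adjusted p = 0.052). Mir17hg, the host RNA of the miR-17-92 cluster (chr14:115042879-115046727, plus strand), went from 13.7 and 15.03 FPKM to 1.25 and 1.22, from 1380 and 1161 reads against 98 and 123. Its difference of -2.78 was 2.94 lower than that of normal colon (interaction -2.94, limma adjusted p = 0.025). Reads at these loci come from precursor RNA and do not measure the mature miRNAs. The mature sequences of RefSeq (GRCm38.p6) are given to show what the 2 loci encode, with the seed, bases 2 to 8, in capitals.
mmu-miR-31-5p: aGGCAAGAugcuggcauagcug
mmu-miR-17-5p: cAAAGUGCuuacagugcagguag
mmu-miR-20a-5p: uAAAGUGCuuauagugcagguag
mmu-miR-18a-5p: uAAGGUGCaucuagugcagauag
mmu-miR-19a-3p: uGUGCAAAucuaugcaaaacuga
mmu-miR-19b-3p: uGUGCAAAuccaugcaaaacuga
mmu-miR-92a-3p: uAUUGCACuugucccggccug
miR-17-5p and miR-20a-5p share one seed and miR-19a-3p and miR-19b-3p another, while those of miR-31-5p, miR-18a-5p and miR-92a-3p differ from them and from each other.

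Other lists moved little or in parts. Of 10 heat shock genes 3 rose and 2 fell (1 and 3 with the GC trend removed): the chaperone Hsp90aa1 went from 378 and 516 FPKM to 159 and 181, and the small heat shock protein Hspb1 from 20.2 and 13.7 to 57.0 and 86.2. Of 17 TGF-β and BMP genes 5 rose, among them the ligand Tgfb1 (1.06) and the receptor Tgfbr2 (1.04), and 1, Ltbp2, fell by 1.02. With the GC trend removed 0 of these genes rose and 1 fell. Among partners of CUL4 ligases 5 of 15 rose and 2 fell (2 and 1 with the GC trend removed). Ddb1, the adaptor that joins CUL4 to its substrate receptors, went from 40.6 and 36.2 to 95.6 and 89.1 FPKM (difference 1.24, limma adjusted p = 0.0087), and the receptor Ddb2 fell by 1.02. Cytosolic ribosomal protein genes split, 2 higher and 2 lower of 20 (2 and 3 with the GC trend removed): Rps2 rose by 1.43 and Rpl23 fell by 1.18. Ribosomal protein genes have many processed pseudogenes, so these values are uncertain. Of 9 mast cell genes 1 rose and 1 fell, as they did with the GC trend removed, and of 17 B and plasma cell genes 2 rose (1 with it removed). Immunoglobulin variable segments, which are not in that list, moved more. Of 166 tested 66 rose (39.8%, against 22.7% of all genes) and 1 fell, with a median of 1.28 (1.70 in WT, 0.94 in KO, 0.53 in normal colon). Immunoglobulin genes took 0.391% (WT) and 0.503% (KO) of adenoma reads at 3 months and 0.827% and 1.06% at 4 months.

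Some genes moved oppositely in the 2 genotypes. Of 15281 genes tested, 18 with at least 5 FPKM were apart by at least 1 log2 unit in opposite directions. At 4 months 14 of them were higher in WT and 4 in KO, and most of the 18 were immunoglobulin variable segments. Retnlb, a goblet cell protein that acts on bacteria, read 18.6 FPKM in WT and 107 in KO at 3 months, and 160 and 13.8 at 4 months. Hbb-bs, a haemoglobin chain of red blood cells, read 130 and 296 FPKM at 3 months and 386 and 54.5 at 4 months. Summed over 7 erythroid genes, 5 of them tested, the levels were 181, 374, 683 and 93.7 FPKM in the same order, and the share of blood in the pieces was not measured otherwise. With 1 library per genotype and age, these differences between the genotypes were not tested.

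The genes called in adenoma were also set beside normal colon at each age, with 5 months from its own table. For the 3470 genes that rose, the median adenoma minus normal difference was -0.15 at 3 months, 0.69 at 4 months and -0.04 at 5 months, and 27.3% of them stood nearer at 5 months to the 4-month than to the 3-month value, against 44.4% of all genes. For the 2505 that fell the medians were 0.36, -0.55 and -0.02, and 37.2% were nearer the 4-month value. The 3 to 4 month data chose these genes, so that the first pair of medians is a description only. Immediate early genes stood 0.22, 1.55 and 0.37 above normal at 3, 4 and 5 months. MHC class II genes stood at -0.85, 0.72 and -1.37, hypoxia and glycolysis genes at -0.22, 0.76 and -0.74, and interferon genes at 0.81, 1.30 and -0.20. In these 4 lists the adenomas of 4 months were the highest of the 3 ages. Macrophage genes stood at 0.72, 1.13 and 1.27 and Wnt targets at 1.70, 1.92 and 2.60, where 5 months was the highest. Fibroblast genes stood at 0.46, 0.22 and 1.83.

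**Figure D5:**
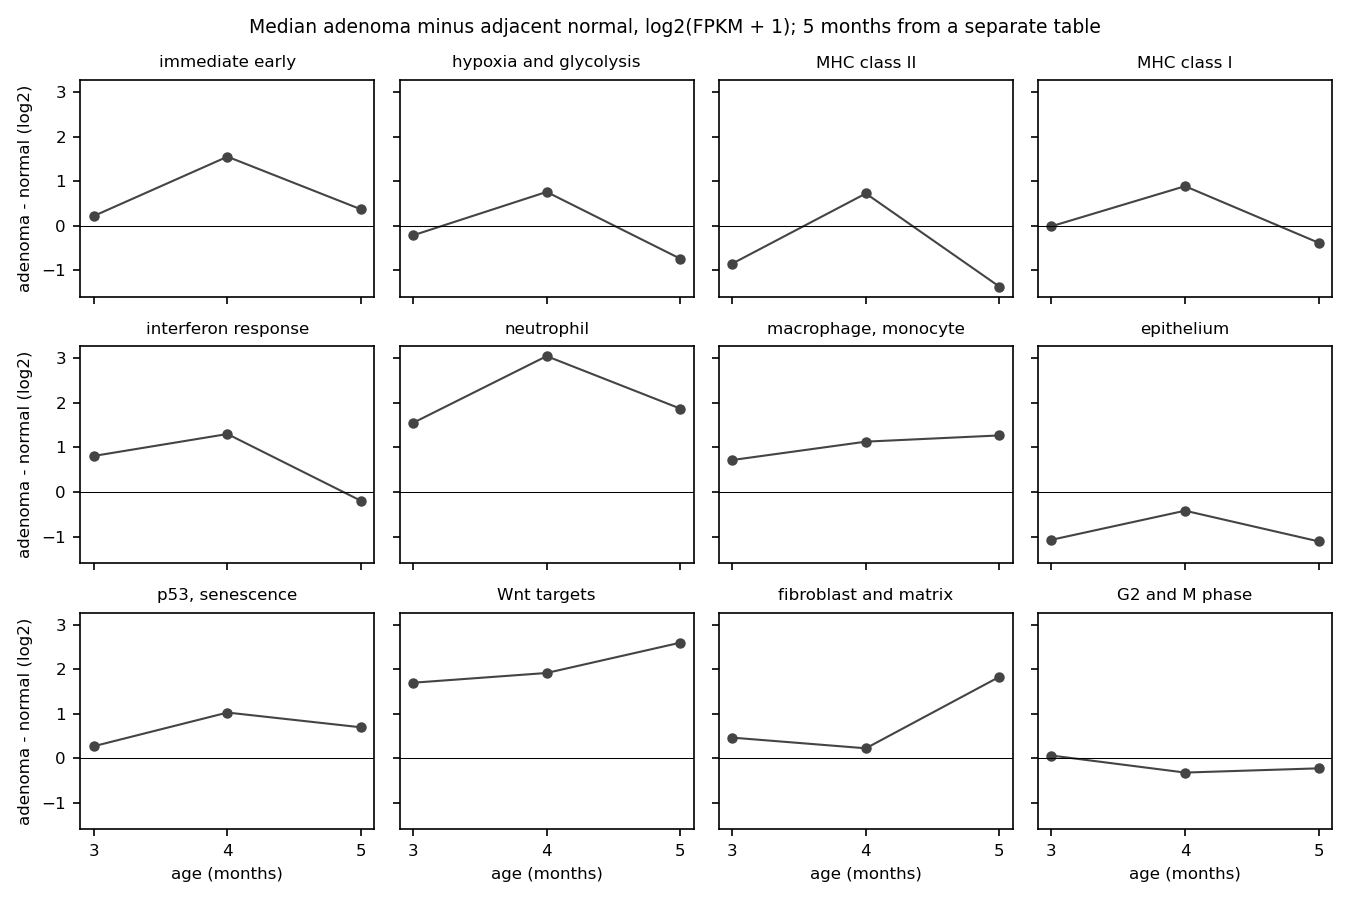
Median adenoma minus adjacent normal difference of gene lists at 3, 4 and 5 months, log2(FPKM + 1), mean of WT and KO, with 5 months from a table scaled separately. Immediate early genes lie at 0.22, 1.55 and 0.37, and Wnt targets at 1.70, 1.92 and 2.60.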

How the data were processed

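RNA was sequenced from 12 colon libraries, 4 of which (adenoma, 3 and 4 months, WT and KO) enter the comparison. The deposited FPKM were made by the authors; per the submitters' processing notes these came from mm10 with StringTie, DESeq2 and featureCounts 1.5.0-p3. Neither aligner nor annotation is given in the sources used here. FPKM times the deposited gene length (in bases, a unit other than FPKM, deposited by the authors) was a whole number of equal steps for 100% of values (tolerance 0.01 of a read), so the authors' FPKM hold whole reads divided by size factors that were set for each table on its own. Reads in genes were 18263611 to 25321931 per library. Floors of 3 reads cover counting error only. Columns of no sample numbered 0.

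Of 52636 genes, the 15281 whose mean in the 8 libraries of 3 and 4 months reached 0.5 FPKM were tested on log2(FPKM + 1), which understates changes of low genes. limma 3.58.1 in R 4.3.3 fitted the 8 libraries with age by tissue terms and genotype as a block within each tissue (2 residual and 2.67 prior degrees of freedom), and p-values were Benjamini-Hochberg adjusted over all genes tested. As an alternative, limma-voom on the recovered reads called 4036 genes higher and 2863 lower. GC content came from GENCODE M21 (52489 of 52636 genes matched). Promoters and miRNAs came from RefSeq, GRCm38.p6. The scripts were tested on simulated data.

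The members and the 57 gene lists were chosen with earlier results of these data known. Summed levels of a list cover all its members found in the deposited data, tested or not. Genes were named by a rule: Cul4b; up to 10 called genes each way of largest difference with at least 2 FPKM; 3 members of each list of smallest p; for lists whose median lay 0.5 or more from that of all genes, also 6 members of highest FPKM; and 5 genes each way for the interaction. Predicted genes and receptor segments were not named singly, and not every gene was printed; some named by the rule are not reported here. Other list members, Retnlb, Hbb-bs, Neat1, Malat1, Clk1 and Ccnl2 were named after their values were seen. Replicate numbers do not pair libraries here, because genotype is the block.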

Additional observations from a re-analysis of the deposited data

Results flagged for a closer look

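The signed age difference was higher in adenoma than in adjacent normal colon for 1611 genes and lower for 952, by an interaction term tested with limma. The lower genes include those that fell more in adenoma. Among the genes of smallest p with a higher difference in adenoma were Clca1, a goblet cell protein (2.96 log2 units), Gprc5a, a retinoic acid-induced receptor (3.26), Dusp4 (2.66) and Hmox1 (2.35). For Clca1 most of this came from normal colon, where it read 1878 FPKM in WT and 2832 in KO at 3 months and 350 and 537 at 4 months. In adenoma Clca1 read 29.9 and 27.9 against 44.6 and 41.3. Gprc5a read 9.68 and 6.50 FPKM in adenoma at 3 months and 52.4 and 28.9 at 4 months, while in normal colon it read 50.3 and 37.2 against 20.8 and 18.6.

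The genes of smallest p with a lower difference in adenoma were Mir5125 (-4.01), Snord58b (-3.43), Snora34 (-3.03), Mir17hg (-2.94) and Leng8 (-2.90). Of these, 4 are noncoding RNA genes. Mir5125 lies in an intron of Srrm2, which fell by 1.14, and Snord58b in an intron of Rpl17, which differed by 0.92 without passing.

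In adenoma 18 genes, most of them immunoglobulin variable segments, were apart by at least 1 log2 unit in opposite directions in WT and KO. Retnlb and Hbb-bs were among them. That difference between the genotypes was not tested, since each genotype had 1 library at each age.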

How the results depend on the processing

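No called gene was called in the opposite direction in any alternative run. Genes higher at 4 months (3470) numbered 2156 with no filter on low values, and 0 to 3886 when 1 library was left out; genes lower (2505) numbered 1257 with a filter at 5 FPKM, and 0 to 2932 with 1 library left out. The 0 counts arose without any 1 of the 4 adenoma libraries, a fit with no replication left in adenoma. They therefore do not show which library a call depends on. Interaction calls (2563) numbered 0 with no filter, 4222 with no genotype block, 1642 with the GC trend removed and 0 to 2486 with 1 library left out, the 0 counts arising without any adenoma library or without the KO normal library of either age. Genes at least 1 log2 unit higher in both genotypes (876) numbered 425 with a pseudocount of 5 and 568 with the GC trend removed. They numbered 2201 at 0.58 log2 units and 47 at 2. Those lower (397) numbered 154 with a pseudocount of 5, 256 with a filter at 5 FPKM and 195 among protein-coding genes. They numbered 615 rescaled without mitochondrial, immunoglobulin and haemoglobin genes, 1151 at 0.58 and 55 at 2. With 1 adenoma library left out, only 1 genotype has a difference, and the rule then asked for 1 log2 unit in that genotype alone. The resulting counts, 1211 to 1243 higher and 473 to 714 lower, thus follow a looser rule and cannot be set against 876 and 397. The GC removal, the protein-coding set and a filter at 20 reads (3599 higher, 2330 lower) were chosen after seeing the data. Uty turned to 0.064 with the GC trend removed, and list medians turned from -0.43 to 0.29 (mitochondrial mRNA), -0.13 to 0.12 (tuft cells), 0.07 to -0.22 (Notch pathway), 0.10 to -0.16 (smooth muscle) and 0.07 to -0.0003365 (matrix remodelling). The erythroid list median ran from -0.0155, without either WT adenoma library, to 1.725 without either KO one. Each age had 2 adenoma libraries, and genes with few reads, most small RNAs among them, are measured with low precision.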
